A study of Homo sapiens and Mus musculus with 6 samples.

Results

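The promoters of Hoxa2, Hoxa3, Hoxa4, Hoxa5, Hoxa7, Hoxa9, Hoxa10, Hoxa11 and Hoxa13 were followed through lists of chromatin contacts called by promoter Capture Hi-C (CHi-C) in mouse embryonic stem cells (mESCs). A call was kept when 1 of these 9 symbols stood among the names of the HindIII fragment at either end, and the same symbols in capitals were sought in the human lymphoblastoid line GM12878. In mESCs, 6 of the 9 symbols were listed, each on 1 fragment, and these 6 fragments were part of 290 of the 101841 calls. In GM12878, 5 of the 9 were listed, again on 1 fragment each, in 16 of the 92929 calls. The mESCs were J1 (129S4/SvJae) cells expanded on irradiated embryonic fibroblasts, which were depleted by replating before harvest, with 2 biological replicates, and a Hi-C library made before capture was given for the same cell type. GM12878, labelled as B-lymphocyte, had 3 biological replicates. All cells were fixed in formaldehyde, neither group received an agent, and no genotype or treatment contrast was made. The replicates of each cell type were called together, so no value below has a replicate spread and no difference between the cell types was tested. Species, cell type, annotation and number of replicates all differed between the 2 lists and cannot be told apart.

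Hox genes encode homeodomain transcription factors that give cells their position along the body axis, and in mammals they lie in 4 clusters whose gene order matches the order of their domains along the head-to-tail axis. Hoxa2 is active towards the head end and patterns the hindbrain and neural crest, Hoxa3, Hoxa4 and Hoxa5 act in the neck and upper trunk, and Hoxa9 to Hoxa13 act in the trunk, the limbs and the urogenital tract. In embryonic stem cells the clusters are known as targets of Polycomb group proteins, which keep developmental genes silent. CHi-C measures how often a baited promoter fragment is ligated to any other fragment of the genome after crosslinking. Each call carries a weighted read number, which averages the reads of the replicates with weights for their depth and is not a raw count, and a CHiCAGO score, which is the negative logarithm of a p-value weighted by distance. Only pairs with a score of 5 or more were listed, so a pair that is missing was not called, which does not show that it had no contact.

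The 6 mESC member fragments lay on chromosome 6 (mm9) in the order Hoxa2, Hoxa4, Hoxa5, Hoxa3, Hoxa10, Hoxa13. The Hoxa2 fragment spanned chr6:52112862-52116905, that of Hoxa4 chr6:52140922-52143814 and that of Hoxa5 chr6:52151566-52157512. The fragment named for Hoxa3 at chr6:52163060-52172145 was out of gene order, since it held 3 of the 6 annotated Hoxa3 starts, the most upstream ones, together with all 5 starts of Hoxa7. The Hoxa10 fragment, chr6:52190052-52192368, held 2 of the 5 Hoxa10 starts, and the Hoxa13 fragment, chr6:52209629-52216773, held all 3 of Hoxa13. Hoxa7, Hoxa9 and Hoxa11 were not listed under their own names. The starts of Hoxa11 lay on the bait named Hoxa11as, an antisense transcript, and 2 of the 4 starts of Hoxa9 on the bait named Mir196b, a microRNA gene. These fragments are described as neighbours, not as members.

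The stretches below are printed because the contacts below turn on them, with each CG dinucleotide in capitals, as CG-dense DNA is a known feature of Polycomb targets. The first pair is the 250 bases before the start of the outermost members, chr6:52115413-52115662 for Hoxa2 and chr6:52210875-52211124 for Hoxa13, both on the minus strand and clear of exons. The other pair is the CG-richest 250 bases of a distal partner fragment outside protein-coding exons, on the plus strand. Of these, chr6:83652653-83652902 lay in the long non-coding Vax2os1 gene and overlapped its exon, and chr6:51128612-51128861 lay in a block without annotated genes.
Hoxa2: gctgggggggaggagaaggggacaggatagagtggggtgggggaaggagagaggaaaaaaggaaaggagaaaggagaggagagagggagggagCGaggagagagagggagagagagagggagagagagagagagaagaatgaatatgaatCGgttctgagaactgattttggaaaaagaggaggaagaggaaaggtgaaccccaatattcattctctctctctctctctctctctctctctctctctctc
Hoxa13: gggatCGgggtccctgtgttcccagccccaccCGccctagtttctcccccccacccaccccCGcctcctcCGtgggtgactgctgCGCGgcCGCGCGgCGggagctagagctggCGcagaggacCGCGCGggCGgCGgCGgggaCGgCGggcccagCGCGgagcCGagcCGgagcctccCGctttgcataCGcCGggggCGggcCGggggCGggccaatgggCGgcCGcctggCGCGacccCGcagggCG
Vax2os1 fragment: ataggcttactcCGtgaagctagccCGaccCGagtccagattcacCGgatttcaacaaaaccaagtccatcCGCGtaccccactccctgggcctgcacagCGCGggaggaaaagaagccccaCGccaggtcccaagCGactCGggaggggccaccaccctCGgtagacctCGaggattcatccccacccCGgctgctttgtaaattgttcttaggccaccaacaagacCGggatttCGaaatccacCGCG
Gene-free block: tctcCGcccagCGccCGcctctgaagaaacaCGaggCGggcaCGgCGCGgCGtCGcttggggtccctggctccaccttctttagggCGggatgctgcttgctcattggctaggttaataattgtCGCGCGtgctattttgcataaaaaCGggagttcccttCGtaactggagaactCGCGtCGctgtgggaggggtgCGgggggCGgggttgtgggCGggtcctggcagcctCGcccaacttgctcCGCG
The Hoxa2 stretch held 2 CG dinucleotides and held long runs of GA and CT repeats, whereas that of Hoxa13 held 35, against a median of 7 over the same window of 1166 protein-coding genes of chromosome 6. The Vax2os1 stretch held 18 and the gene-free stretch 25. Over whole fragments, the 6 members had between 2.99 and 6.26 CG dinucleotides per 100 bases, lowest on Hoxa2 and highest on Hoxa4. The median of the 837 baits listed on chromosome 6 was 1.56, and each of the 6 members was denser than at least 82.3% of these baits. Of the 1806 other listed fragments of the chromosome, the median was 1.04.

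Across both series lists the median call had 13 weighted reads in mESCs and 16 in GM12878, from 16265 and 15389 baits with at least 1 call. As called pairs only were listed, the depth of the libraries is unknown from them. Contact data hold no expression, so the labelled cell types could not be checked against markers. Intervals below are Wilson 95% intervals of shares of calls; they cover counting error only, and calls that share a fragment are not independent. For a count of 0 the limit given is 3 counts of the total.

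In mESCs the members contacted mostly their own cluster. Of the 290 calls, 187 (64.5%, interval 58.8 to 69.8%) had both ends within the cluster, taken as the 109.6-kb span of listed Hoxa fragments that ends with Hoxa13. A further 56 calls (19.3%, 15.2 to 24.2%) led to the flank that holds Skap2, which encodes an adaptor protein of immune cells, and 28 (9.66%, 6.76 to 13.6%) to the flank that holds Evx1, another homeobox gene. Contacts over 10 Mb on the same chromosome made up 19 calls (6.55%, 4.23 to 10.0%). No call led to another chromosome, and 0 of 290 allows a share of up to 1.03%, which does not exclude the 0.569% of all mESC calls that did. Members stood as the bait in 235 of the 290 calls, at the other end in 82, and at both ends in 27.

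**Figure D1:**
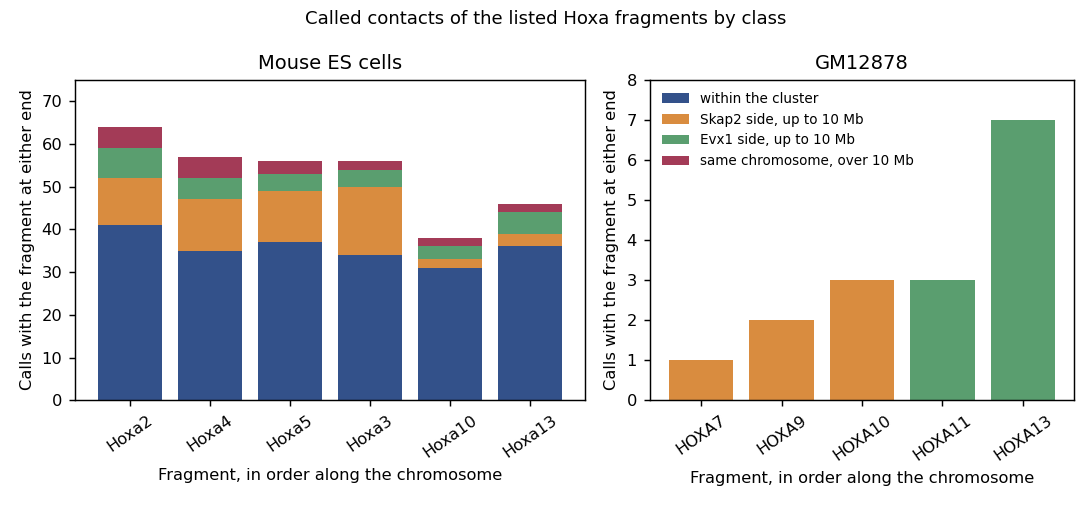
Number of called contacts (y axis) of each listed Hoxa fragment (x axis, in chromosome order), stacked by class, in mESCs (left) and GM12878 (right, on its own scale); a call between 2 members is counted at both. In mESCs each fragment had at least 31 calls within the cluster, while no GM12878 bar holds such a call.

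Among the members, Hoxa2 was contacted most and Hoxa10 least. Counting calls at either end, Hoxa2 had 64, Hoxa4 57, Hoxa5 56, the Hoxa3 fragment 56, Hoxa13 46 and Hoxa10 38. As baits alone they had 47, 39, 45, 42, 33 and 29 calls in the same order, which placed Hoxa2 100th and Hoxa10 385th among the 16265 baits. The members thus all ranked high for calls per bait, and the 4 fragments towards the Hoxa2 end ranked above the pair at the Hoxa13 end. This order held among the members only. The Mir196b and Hoxa11as baits, which lie between the Hoxa3 fragment and Hoxa13, had 55 and 61 calls as baits, more than any member. Calls within the cluster ranged from 31 for Hoxa10 to 41 for Hoxa2. On the Skap2 flank there were 11 calls for Hoxa2, 12 each for Hoxa4 and Hoxa5 and 16 for the Hoxa3 fragment, but 2 for Hoxa10 and 3 for Hoxa13. The Mir196b and Hoxa11as baits had 13 each on this flank, so the low counts did not extend to all baits near Hoxa10 and Hoxa13.

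All 15 pairs of the 6 member fragments were called, 12 of them from both ends. In mESCs, 33.8% of all 26376 pairs of baits as far apart as these (12.2 to 98.3 kb), leaving out adjoining fragments, were called from at least 1 end. The member pairs had between 32 and 119 weighted reads, with a median of 56. The 8902 other called bait pairs of this distance range had a median of 20 weighted reads and quartiles of 14 and 30. Read numbers also depend on how well each bait was captured and on fragment length, whose part was not tested.

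Hoxa2 formed the strongest member pairs. It had 119 weighted reads with Hoxa4, 112 with Hoxa5, 88 with the Hoxa3 fragment, 53 with Hoxa10 and 61 with Hoxa13, which lies 98.3 kb away at the opposite end of the cluster. The contact of Hoxa2 with Hoxa13 scored 25.1 with Hoxa2 as the bait and 34.78 with Hoxa13 as the bait, above the pair of Hoxa4 and Hoxa5 12.2 kb apart, which had 87 reads and was called from Hoxa5 alone with a score of 6.43. The score weighs reads against the background of the distance, so a near pair needs more reads for the same score. Every other member had its lowest read number with Hoxa10, from 32 for Hoxa13 to 53 for Hoxa2, and its pairs with Hoxa4 and the Hoxa3 fragment were called from the Hoxa10 side alone.

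**Figure D2:**
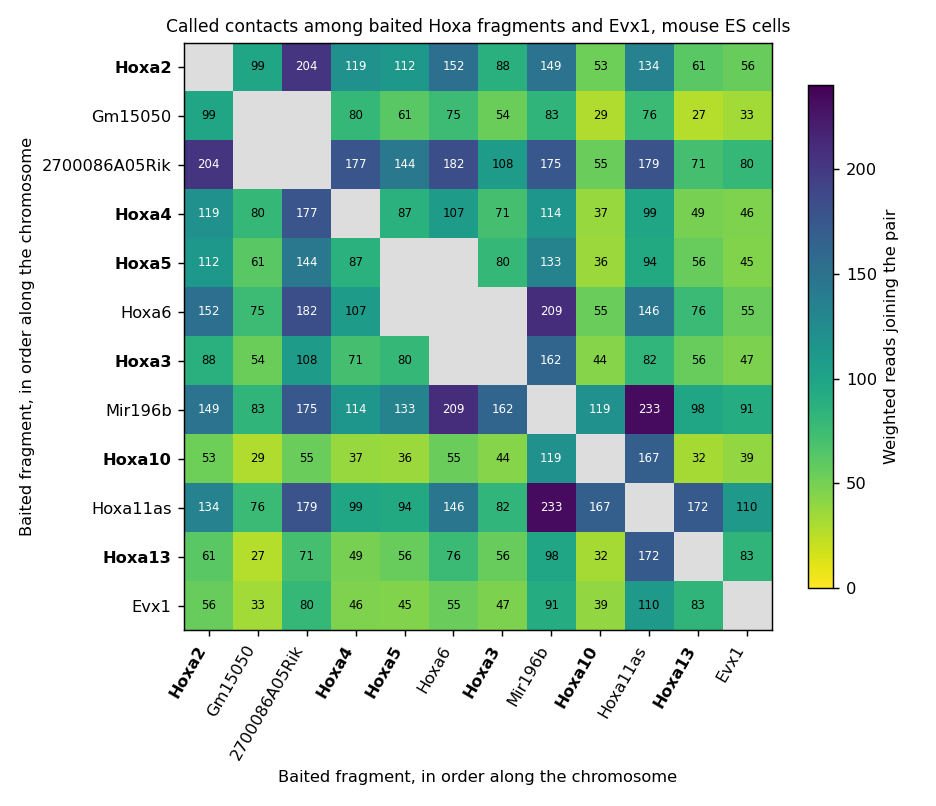
Weighted reads (colour and number) of called pairs among 11 baited fragments of the cluster and the Evx1 bait in mESCs, ordered along the chromosome on both axes, with member names in bold and grey for pairs that were not called. Only pairs of adjoining fragments and the diagonal are grey.

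The baited neighbours within the cluster took part as fully. Of the 66 pairs among all 12 baited fragments of the cluster, 63 were called, and the 3 that were not join adjoining fragments, a kind of pair that no call of either list holds. The highest score of any member call, 59.22, joined Hoxa2 to the Hoxa11as fragment 83.4 kb away with 134 weighted reads, and Hoxa2 to Mir196b followed with 58.04 and 149 reads. The top call of Hoxa13 also led to the Hoxa11as fragment (43.9, 172 reads). Hoxa5 scored highest with 2700086A05Rik, a non-coding transcript between Hoxa2 and Hoxa4 (35.35, 144 reads). Hoxa4 (29.84, 80 reads) and the Hoxa3 fragment (32, 54 reads) scored highest with Gm15050, the bait that adjoins 2700086A05Rik, and Hoxa10 with Hoxa2 (34.79, 53 reads). Gm15050 was the bait in these top calls of Hoxa4 and the Hoxa3 fragment. With the member as the bait, the same pairs scored 6.61 and 11.99. Over calls from either end, the top partner of each member thus lay in the cluster, and for all members but Hoxa13 it was not the nearest bait. HindIII cuts the cluster span into 46 fragments in mm9, of which 38 were contacted by at least 1 member, among them 26 that were not baited, and 6 of the remaining 8 were under 500 bp long.

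Beyond the Hoxa13 end, the contacts went to Evx1, which is active in the posterior embryo and in neurons. The Evx1 bait, chr6:52256627-52265583, lay 44.3 kb past the cluster edge and was called with all 6 members from both sides, 12 calls in all. It had 83 weighted reads with Hoxa13, 39 with Hoxa10, 47 with the Hoxa3 fragment, 45 with Hoxa5, 46 with Hoxa4 and 56 with Hoxa2. Hoxa2 is the farthest of the 6 at 146 kb and yet had more reads with Evx1 than all but Hoxa13. The next fragment, chr6:52265584-52274554, which holds an Evx1 exon, was also called from all 6 members, with 16 to 20 reads each. Farther out on this side, the Tax1bp1 promoter fragment, of an autophagy receptor, was called with Hoxa2, Hoxa3 and Hoxa4 at 3 to 4 reads, and the Jazf1 promoter fragment, of a zinc finger cofactor, with Hoxa13 alone at 9 reads and 805 kb.

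On the Skap2 side, the contacts fell into a few narrow places that several members shared. Right at the cluster edge, 7 calls of Hoxa4, Hoxa5 and the Hoxa3 fragment led to the Gm15051 bait and a nearby fragment, with 19 to 32 weighted reads. The place with the most calls was a block about 1 Mb away without annotated genes, chr6:51117209-51162854, whose 8 contacted fragments took 24 member calls. All 6 members reached it, with summed weighted reads of 46 for Hoxa2, 45 for Hoxa4, 27 for Hoxa5, 56 for the Hoxa3 fragment, 6 for Hoxa10 and 10 for Hoxa13. Of the 12 baits that called any of its 8 fragments in the whole list, 11 lay in the Hoxa cluster. Its best-scoring fragment for a member, chr6:51123833-51130765, holds the gene-free stretch printed above and was called from Hoxa2 with 15.27. That fragment had 2.35 CG dinucleotides per 100 bases, more than 95.7% of the unbaited fragments of the chromosome, and the 8 fragments ranged from 1.15 to 3.40.

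Nearer the cluster, 7 calls of Hoxa2, Hoxa4, Hoxa5 and the Hoxa3 fragment led to chr6:51521763-51550506 at and beyond the end of Snx10, a sorting nexin gene, each with 7 to 9 weighted reads. In the body of Skap2 and just past its end, chr6:51795920-51831641 took 12 calls from all members but Hoxa10, with 8 to 16 reads and scores of at most 6.98. The bait at the Skap2 promoter itself was called with Hoxa4 alone (9 reads, score 5.22). At 3.72 to 3.79 Mb, the promoter fragment of Zfp467, a zinc finger gene, took 3 calls from Hoxa2 and Hoxa4 with 5 to 7 reads, and the adjoining fragment, which holds no annotated gene, 1 call from Hoxa10 with 4 reads. Of 13 neighbouring genes followed as a list, 6 had a fragment of their name called with a member in mESCs, among them Hoxa6, Evx1, Skap2, Tax1bp1 and Jazf1. Hibadh, Hnrnpa2b1 and Nfe2l3 had listed baits but no such call, and Snx10 had none on its promoter bait.

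**Figure D3:**
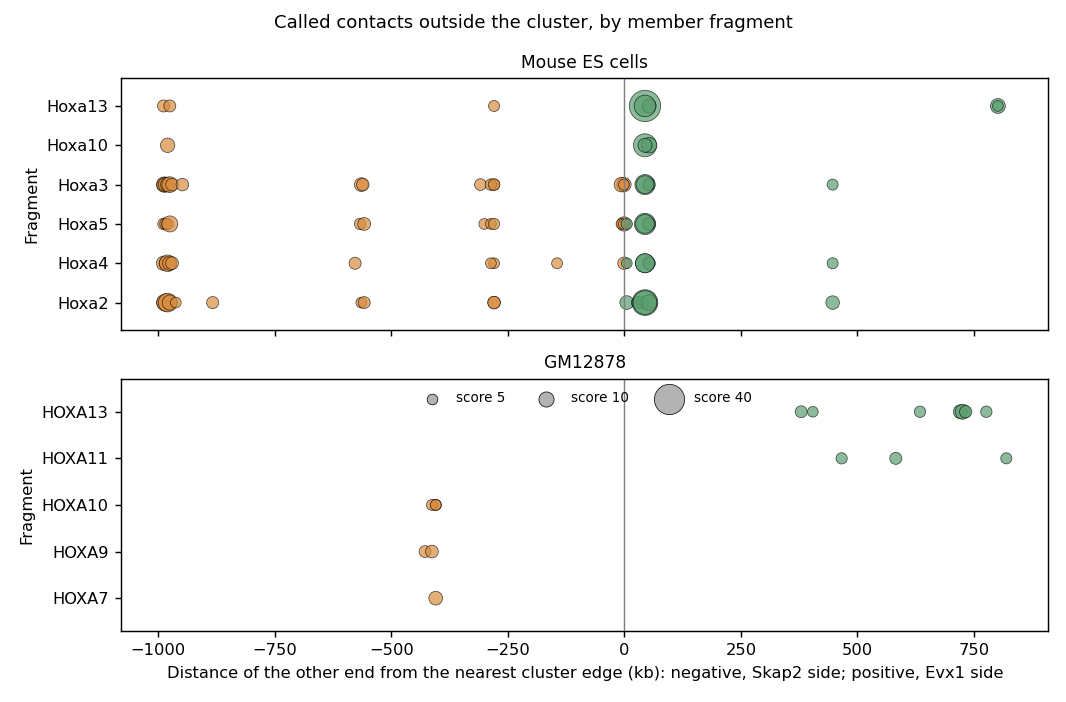
Called contacts of each member fragment (rows, in chromosome order) with fragments outside the cluster and around it, by distance from the nearest cluster edge (x axis, kb, negative towards Skap2), with point area in proportion to the score. In mESCs the points of several members stack at shared distances; in GM12878 HOXA7, HOXA9 and HOXA10 lie left of 0 and HOXA11 and HOXA13 right of it.

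The share of flank calls on the Skap2 side moved out of its interval with the score and the read minimum. With the way the Hoxa3 fragment was counted it shifted but stayed inside its interval. For Hoxa2 to Hoxa5, 51 of 71 flank calls led to the Skap2 side (71.8%, interval 60.5 to 81.0%), and for Hoxa10 and Hoxa13, the listed fragments of Hoxa7 to Hoxa13, 5 of 13 did (38.5%, 17.7 to 64.5%). The intervals overlap. For Hoxa2 to Hoxa5 the share was 47.1% (8 of 17) with a score of at least 10 and 50% (17 of 34) with at least 10 reads, and for Hoxa10 and Hoxa13 it was 0 of 4 and 0 of 6. With the Hoxa3 fragment counted by its position with Hoxa10 and Hoxa13, an alternative chosen after seeing the data, the shares were 68.6% and 63.6%. With all listed fragments between Hoxa2 and Hoxa13 taken by position, they were 61.1% and 59.4%. Beyond 100 kb from the cluster, Hoxa2 to Hoxa5 had 44 of 47 calls on the Skap2 side and Hoxa10 and Hoxa13 had 5 of 7. Up to 100 kb these counts were 7 of 24 and 0 of 6.

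All 6 members had at least 1 contact over 10 Mb as a bait, whereas 1.39% of all mESC baits did (226 of 16265). Such calls were 0.681% of all mESC calls. The 19 calls of the members fell on 6 fragments in 2 places on chromosome 6, of which 14 led to Vax2os1 and 5 to Dlx5 and Dlx6. The named partner Dlx5, like the members, is a homeobox gene, active in the forebrain, the jaws and developing bone, and Vax2os1 is a non-coding RNA gene beside Vax2, a homeobox gene of the ventral eye. Of the baits with a call over 10 Mb, 38.1% carried a named gene of the developmental families listed for this purpose, against 1.99% of all baits. The 226 baits include the 6 members themselves, and the families were chosen with earlier results known, so this share is a description only. The members' own read numbers were low at this distance, from 3 to 11 with a median of 4.

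The Vax2os1 contacts lay on 3 adjoining fragments, none of them baited, which span chr6:83651037-83655695, 31.4 to 31.5 Mb from the members. The middle fragment, which holds the Vax2os1 start and the stretch printed above, was called from all 6 members with 7 weighted reads for Hoxa2, 5 for Hoxa4, 8 for Hoxa5, 11 for the Hoxa3 fragment, 3 for Hoxa10 and 3 for Hoxa13. Scores ran from 5.07 for Hoxa13 to 25.55 for Hoxa5 and the Hoxa3 fragment. The first fragment was called from all members but Hoxa13, with 8 reads and a score of 26.06 for Hoxa2 and 4 to 7 reads for the rest. The last was called from Hoxa2, Hoxa4 and Hoxa5 with 4 reads each. The first and middle fragments had 2.63 and 4.03 CG dinucleotides per 100 bases, and the last had 0.978. A link between this density and the number of calls was not tested.

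**Figure D4:**
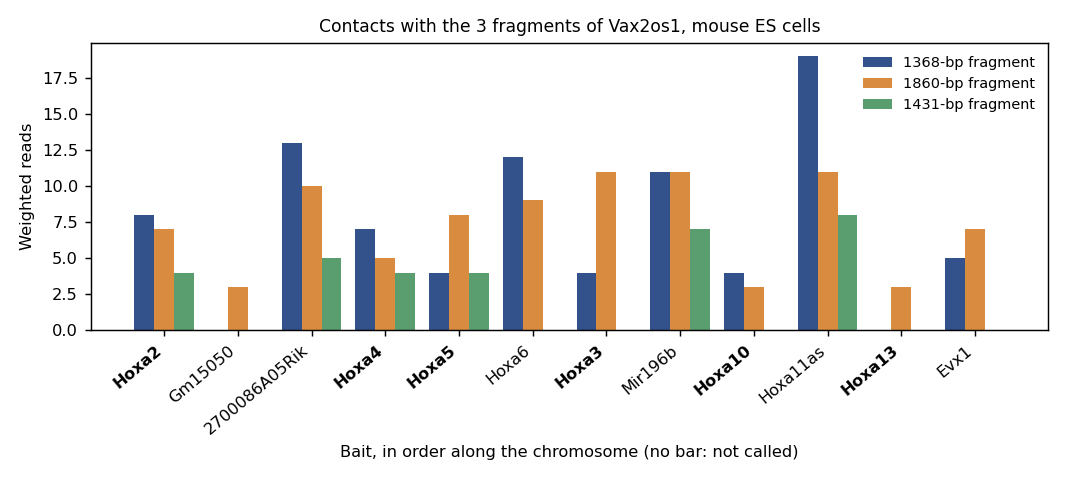
Weighted reads (y axis) of the called contacts between 11 baits of the Hoxa cluster or Evx1 (x axis, in chromosome order, members in bold) and the 3 adjoining fragments of Vax2os1 in mESCs. Every bait shown had at least 1 call; member values lie between 3 and 11, and the Hoxa11as bait had the highest, 19.

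Every one of the 12 baits of the cluster called at least 1 of these fragments, as did Evx1. In the whole list 29 baits did so, 12 of them in the cluster and 17 outside, and 15 of those 17 lay within 5 Mb of the fragments. By name these 15 were Dok1, Aup1, Tlx2, Pcgf1, Lbx2, Mogs, Rtkn, Wdr54, Tet3, Vax2os1, Cyp26b1, Emx1, Fbxo41, Egr4 and Gata2. Of these, Emx1, Lbx2 and Tlx2 are homeobox genes. Beyond 5 Mb lay Evx1 and Ccnd2, a cyclin gene 43447.9 kb away. The bait next to the 3 fragments, itself named Vax2os1, was not called with a listed member, but with the Hoxa6, Mir196b and Hoxa11as baits at 4, 5 and 4 weighted reads and with the unbaited fragment chr6:52174825-52179065, which holds 2 of the Hoxa9 starts, at 3. The contact was therefore called from every bait of the cluster, members and neighbours alike.

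The Dlx5 contact joined Hoxa2 to the Dlx5 promoter fragment, chr6:6829164-6833001, 45.3 Mb away, and was called from both ends with scores of 12.28 and 12.02 on 5 weighted reads. The bait labelled uce at chr6:6808379-6814655, which holds starts of Dlx6 and Dlx6os1, was called with Hoxa4 from both ends (5.99 and 6.59, 4 reads). An unbaited fragment with a Dlx5 exon was called from Hoxa13 (5.86, 3 reads). Hoxa5, the Hoxa3 fragment and Hoxa10 had no call there. In contrast with Vax2os1, the Dlx5 and Dlx6 fragments were thus called with 3 of the 6 members, each time on 3 to 5 reads.

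Some of the same places appeared in the Hi-C library, which was made before capture and binned by the authors. Of the 248 member calls under 1 Mb, 202 (81.5%, interval 76.1 to 85.8%) lay in pairs of 25-kb bins listed with a false discovery rate under 0.05, against 11.6% of all mESC calls under 1 Mb. For calls within the cluster the count was 169 of 187, on 10 bin pairs with 2.03 to 6.61 times the expected read pairs. On the Skap2 side it was 14 of 33 and on the Evx1 side 19 of 28. The gene-free block was joined to the cluster by 3 such bin pairs, with 14, 16 and 24 read pairs against 1.56, 1.81 and 4.74 expected. Evx1 was joined to it by 5 bin pairs. The region at the end of Snx10 was joined to it by the bin chr6:51529384-51554384. The bin chr6:51550640-51575640, which was also joined to it, starts just beyond that region. No listed 25-kb bin pair joined the cluster to the Skap2 body, Tax1bp1 or Jazf1.

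All 19 calls over 10 Mb lay in pairs of 1-Mb bins listed under the same threshold, against 81.8% of all mESC calls over 10 Mb, and they rest on 2 bin pairs. The bin of the Hoxa cluster and the bin of Vax2 had 423 read pairs where 117 were expected, and the Hoxa bin and that of Dlx5 and Dlx6 had 188 where 90.6 were expected. Of the 23 member calls of 1 to 10 Mb, which lead to the gene-free block and to Zfp467 or the fragment beside it, none lay in a listed 1-Mb bin pair, against 53.7% of all such mESC calls (1472 of 2742). These 2 shares are not matched for distance, since the member calls to the gene-free block span at most 1.09 Mb and the member calls fall on few places. The 25-kb list stops at 1 Mb, and the gene-free block lies on both sides of that limit.

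In GM12878 the HOXA members had 16 calls, none within the cluster, none over 10 Mb and none to another chromosome. For each class, 0 of 16 allows a share of up to 18.8%. Overall 0.175% of GM12878 baits had a call over 10 Mb, and 0.109% of the calls were of that kind and 0.31% between chromosomes. The 5 member fragments on chromosome 7 (hg19) were HOXA7, chr7:27196593-27201206; HOXA9, chr7:27207967-27210220; HOXA10, chr7:27216169-27221401; HOXA11, chr7:27221402-27230273; and HOXA13, chr7:27230274-27238412. No fragment named for HOXA2, HOXA3, HOXA4 or HOXA5 was listed. None of the 10 pairs of these fragments was called, 8 of which do not adjoin, while 36.2% of all GM12878 bait pairs as far apart (7.05 to 35.4 kb) were.

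The few human contacts divided by position in the cluster. HOXA7 had 1 call, HOXA9 2 and HOXA10 3, and all 6 led towards SKAP2, to fragments within chr7:26695958-26731784 in the body of that gene, with 9 to 12 weighted reads. HOXA11 had 3 calls and HOXA13 7, and all 10 led the other way, with 8 to 16 reads. HOXA10 and HOXA11 are adjoining fragments, so the change of side fell at the HindIII site between them. On the EVX1 side, HOXA13 contacted introns of HIBADH, a metabolic enzyme gene, the shared end of TAX1BP1 and JAZF1, and introns of JAZF1, with its highest score of 9.87 at chr7:27960630-27968116. HOXA11 contacted the HIBADH promoter fragment, TAX1BP1 and JAZF1, and the EVX1 bait was not called with any member. All scores were under 10, so this rests on weak calls, and the difference between the fragments was not tested.

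Flank genes overlapped in part between the cell types. Of the 13 neighbouring genes, members reached the body of 7 in mESCs and of 4 in GM12878, the latter being SKAP2, HIBADH, TAX1BP1 and JAZF1. Skap2, Tax1bp1 and Jazf1 were reached in both, and Hibadh in GM12878 alone. Hoxa13 reached Jazf1 in both cell types, by its promoter fragment in mESCs and by fragments of its body in GM12878. The human partner fragments in SKAP2 were CG-poor, as were most of those on the EVX1 side. The 3 in SKAP2 had 0.523 to 0.667 CG dinucleotides per 100 bases. Those on the EVX1 side had 0.318 to 1.69, and the 5 HOXA baits had 2.45 to 5.41. The medians of the listed fragments of chromosome 7 were 1.08 without and 1.99 with a bait, and 1 of the 3 SKAP2 fragments was itself baited.

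Set beside the other Hox clusters in mESCs, the 6 Hoxa member fragments had the highest share of calls within their own cluster. The sets are unlike. Every fragment named for a Hoxb, Hoxc or Hoxd gene was counted, but Hoxa was counted by its members only, without the Hoxa6 bait. That bait had 42 of its 81 calls within the cluster. The within-cluster share was 64.5% for Hoxa, 52.5% for Hoxb (interval 48.1 to 56.9%), 27.0% for Hoxc (23.3 to 31.0%) and 22.3% for Hoxd (17.2 to 28.4%). With all fragments between Hoxa2 and Hoxa13 taken by position the Hoxa share was 53.1%, which lies inside the Hoxb interval. Calls over 10 Mb were 6.55% for Hoxa, 17.2% for Hoxb and 7.11% for Hoxd, and 0 of 512 for Hoxc (limit 0.586%). All pairs of the Hoxa member fragments were called, and 21 of 21 fragment pairs for Hoxc, 43 of 45 for Hoxb and 14 of 15 for Hoxd. Pairs of adjoining fragments were not taken out of these counts. The Hoxa6 bait, left out here, was not called with the Hoxa5 and Hoxa3 fragments that adjoin it, so these pair counts are not like for like. In GM12878, calls within the cluster were 2 of 143 for HOXB, 8 of 185 for HOXC and 0 of 62 for HOXD (limit 4.84%), and no fragment of the 4 clusters had a call over 10 Mb. The clusters differ in length and in their number of baits, so these shares are descriptions and their differences were not tested.

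**Figure D5:**
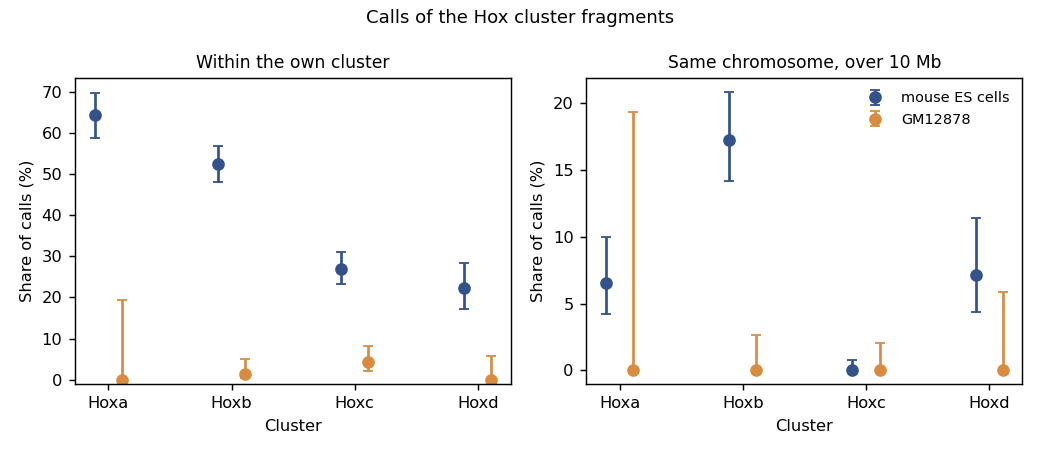
Share of calls (y axis, %) within the own cluster (left) and over 10 Mb on the same chromosome (right) for the fragments of each Hox cluster in mESCs (blue) and GM12878 (orange), with Wilson 95% intervals for counting error. Hoxa is shown by its member fragments and the other clusters by all fragments of their name. On these unlike sets Hoxa has the highest within-cluster share in mESCs, 64.5% (53.1% by position), and Hoxb the highest share over 10 Mb, 17.2%.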

How the data were processed

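Promoter CHi-C was done on 2 mESC and 3 GM12878 biological replicates and Hi-C on 1 mESC library, all cut with HindIII. Per the study's methods and the submitters' processing notes, the authors mapped reads with HiCUP (Bowtie 1.1.0) to mm9 and hg19, and called contacts on all replicates jointly with CHiCAGO. The deposited call lists give a score per pair, 5 or more, and a weighted read number that the authors rounded, handled here as a score and not a count. HOMER 4.7 gave the deposited Hi-C bin pairs with read pair counts, an expected signal and a p-value adjusted as a false discovery rate.

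From these lists, Python 3.11.15 with pandas 2.3.3 split the names, which are separated differently in the mouse and human lists, kept calls with a member symbol at either end, and measured distances between fragment midpoints. The members, gene lists and comparisons were chosen with earlier results of these data known. The reader was tested on simulated data. Both ends of all 2643 and 2708 listed fragments of chromosomes 6 and 7 lay at HindIII sites in the genomes used. Genes were from GENCODE annotation of the same builds. Neighbouring partner fragments up to 20 kb apart were grouped. Named genes were all members, the ends of the top call of each, genes on fragments over 10 Mb away and a list of 13 neighbouring genes; Zfp467 and baits outside the cluster that share a partner were named after their values were seen. The values of 1 neighbouring gene are not reported here. Alternatives were a score of 10, a minimum of 10 reads, the browser list, members by position, a limit of 5 Mb and a false discovery rate under 0.01.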

Additional observations from a re-analysis of the deposited data

Results flagged for a closer look

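The Hi-C library held contacts of the Hoxa cluster with other chromosomes, a class for which no member call was listed in the mESC capture data. The 1-Mb bin of Hoxa and the bin at 96 Mb of chromosome 11, which holds the Hoxb cluster, were joined by 76 read pairs where 25.6 were expected. The Hoxa bin and the bin at 102 Mb of chromosome 15, which holds the Hoxc cluster, were joined by 51 read pairs where 23.04 were expected (false discovery rate 0.000103). Both bins hold other genes beside the Hox clusters, only 1 library was measured, and the share of these read pairs that falls on the Hox fragments was not tested.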

How the results depend on the processing

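No paired analysis was possible because the replicates of each cell type were called together and the lists carry no replicate column; for the same reason no replicate could be left out. Of 52 values recomputed, 39 stayed inside the interval, or within 1.5 times the count, of the value reported, and no value moved farther under the browser list, the 5-Mb limit, a false discovery rate under 0.01 or, chosen after seeing the data, the Hoxa3 fragment counted with Hoxa7 to Hoxa13. With a score of at least 10, mESC calls fell to 141, of which 78.7% were within the cluster, the Skap2-side shares were 47.1% for Hoxa2 to Hoxa5 and 0 (of 4 calls) for Hoxa7 to Hoxa13, the share in 25-kb Hi-C bin pairs was 93.7%, and GM12878 kept 0 calls, so its shares could not be formed. With at least 10 reads, 82.0% of mESC calls were within the cluster, 0.439% (1 call) over 10 Mb, the Skap2-side shares were 50% and 0 (of 6 calls), and the Hi-C share was 86.3%. With members found by position there were 605 calls, 53.1% of them within the cluster. The contacts over 10 Mb thus rest on few reads each, and a stricter read minimum leaves 1 of 19. HOXA2 to HOXA5 had no listed call, so their side share has no value under any setting. The cause of these moves was not tested.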

Other observations

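Among the cluster baits, the strongest contacts with Vax2os1 came from baits that carry no member name, though not from all of them. The Gm15050 bait had 30 calls at either end and 1 call with Vax2os1, on 3 weighted reads (score 6.05). The Hoxa11as bait, which holds the Hoxa11 starts, had 80 calls at either end, and its contact with the first Vax2os1 fragment, on 19 weighted reads, scored 83.16. The Hoxa6 bait had 81 calls, the Mir196b bait 74 and the 2700086A05Rik bait 68, all more than any member, and the top call of Hoxa6 and of 2700086A05Rik was again with Vax2os1 (47.61 and 56.84).

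In the Hi-C list the Hoxa bin had 16 listed partners under the threshold, 12 on chromosome 6 and 4 on other chromosomes. Over the 2055 bins with a listed partner on another chromosome the median was 3 such partners, and 575 bins had more than the Hoxa bin. Among the partners on other chromosomes, beyond the bins of Hoxb and Hoxc, was a bin with Tbx2 and Tbx4, T-box transcription factor genes, with 48 read pairs against 26.0 expected (chromosome 11, 85 Mb). The last of the 4, on chromosome 4 at 150 Mb, held no gene of the developmental families. It had 35 read pairs against 18.5 expected (false discovery rate 0.049). Several of the 12 partner bins on chromosome 6 also held no such gene.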
